A study of Homo sapiens with 8 samples.

Results

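The hexosamine pathway and the O-GlcNAc cycle were followed through 7 genes, GFPT1, GFPT2, GNPNAT1, PGM3, UAP1, OGT and OGA, in total RNA of the established cell line G401. This line was derived from a kidney rhabdoid tumor and has lost SMARCB1, which belongs to the core of the SWI/SNF chromatin remodelers. The genes were chosen by name and not by their values, though with earlier results of these data known. They are 7 of the 69215 genes listed in each library. All 7 passed the expression filter, which left 15931 genes for testing. G401 cells carried a Tet-On transgene for either SMARCB1 or, as control, GFP, and were given 0.1 µg/ml doxycycline (Dox) or its solvent dimethylsulfoxide (DMSO) for 12 h. This gave the groups SMARCB1 DMSO, SMARCB1 Dox, GFP DMSO and GFP Dox, with 2 libraries each. The endogenous SMARCB1 loss is shared by all 4 groups, the lines differ in their transgene, and neither the labels nor the study's methods used here say whether a line is a clone. According to the methods, culture plates were pooled for each condition and the work was done in duplicate. Neither the labels nor the methods say what the duplicates share, so the p-values measure the spread between these libraries, part of which may be technical.

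UDP-GlcNAc, the activated form of N-acetylglucosamine, is made by the hexosamine pathway from a glycolytic sugar phosphate, glutamine, acetyl-CoA and uridine triphosphate, and is used to build N-glycans, hyaluronan and other glycans. It is also the donor for O-GlcNAc, a single sugar that OGT attaches to serine and threonine residues of nuclear and cytoplasmic proteins and that OGA removes. Because the entry reaction draws on both glucose and glutamine, the pathway is regarded as a nutrient sensor, and its genes are known targets of the XBP1 branch of the unfolded protein response.

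Counts assigned to genes summed to between 29632090 and 37597477 per library. SMARCB1 itself was read 10 and 21 times in SMARCB1 DMSO, 30474 and 29383 times with Dox and 0 times in each GFP library. The share of counts from the mitochondrial genome was 18.9% to 27.9% and was highest in SMARCB1 DMSO replicate 1, and values without this library are given beside the member values that turned in sign without it and the list counts that it moved by over 1.5 times. Levels are given as CPM, counts divided by the TMM-scaled library size, as edgeR gives them, and differences as log2 fold changes with standard error (SE) and a Benjamini-Hochberg adjusted p over all genes tested (edgeR quasi-likelihood test). A gene was called higher or lower at an adjusted p under 0.05.

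GFPT1 was the member for which the study lists quantitative PCR primers. The study's text does not say to which of its sets of tested transcripts GFPT1 belonged. Its quantitative PCR was done on RNA of cell fractions at a later time, not on the total RNA counted here. The GFPT1 primers are shown because they define which GFPT1 transcripts such an assay reads, while the sequencing counts take all of them together.
GFPT1 forward primer: ccctctgttgattggtgtacgg
GFPT1 reverse primer: ggaaaaggcaggttgtgctgtc
On GRCh38 the forward primer lies at chr2:69354538-69354559 in exon 8 and the reverse primer at chr2:69350124-69350145 in exon 10 of the 20 exons of the canonical transcript (GENCODE v44, minus strand). Both matched 4 GFPT1 transcripts and no other gene. The product spans 185 bases in the canonical transcript and 131 bases in the others, which skip exon 9 of 54 bases (chr2:69354259-69354312). Inclusion of such an exon in muscle is known, but counts per gene do not separate the forms.

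The promoters of GFPT1 and GNPNAT1 are shown because these were the members called after SMARCB1 re-expression, in opposite directions. The sequences are from RefSeq (GRCh38.p14), cover 250 bases before to 50 bases after the transcription start, read 5′ to 3′ on the strand of the gene, and have the letters CCACGT, the reverse complement of ACGTGG, in capitals. ACGTGG is part of the known binding sequence of the unfolded protein response factors.
GFPT1 chr2:69387178-69387477, minus strand: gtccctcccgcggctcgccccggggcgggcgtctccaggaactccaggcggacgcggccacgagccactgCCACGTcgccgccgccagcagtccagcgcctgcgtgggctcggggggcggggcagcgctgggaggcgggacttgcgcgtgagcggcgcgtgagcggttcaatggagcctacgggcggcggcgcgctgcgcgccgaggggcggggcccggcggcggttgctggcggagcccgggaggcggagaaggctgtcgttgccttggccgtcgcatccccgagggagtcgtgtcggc
GNPNAT1 chr14:52791558-52791857, minus strand: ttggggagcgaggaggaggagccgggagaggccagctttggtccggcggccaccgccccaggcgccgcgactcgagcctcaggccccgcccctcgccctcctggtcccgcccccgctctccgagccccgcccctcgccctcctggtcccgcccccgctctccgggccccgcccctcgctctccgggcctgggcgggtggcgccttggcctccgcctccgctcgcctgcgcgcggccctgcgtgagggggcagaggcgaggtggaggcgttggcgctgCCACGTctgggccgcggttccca
ACGTGG on either strand was found in at least 1 promoter window of 4 of the 7 members, GFPT1, GNPNAT1, PGM3 and UAP1, and in 9.72% of all 35116 promoters of this length. The members were covered by 10 windows, since UAP1 and PGM3 have several starts. In GFPT1 the letters began at position -180 and in GNPNAT1 at position 28, counted with the start site as 1 and the base before it as -1. The longer TGACGTGG was found in 0 of the 7 members and 0.729% of all promoters, and the arrangement CCAAT, 9 bases and CCACG in 0 members and 0.0769%. CCAAT alone was found in 3 members and 34.6% of all promoters, and GGGCGG, the GC box, in all 7 members and 45% of all promoters. The 10 member windows ran from 57.7% GC in OGT to 79.3% in GNPNAT1, where the median of all promoters was 58.7%. The shares above were not adjusted for this. The 7 gene names all matched the RefSeq table. These matches describe letters only, and no factor binding was measured here.

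Levels of different genes were compared per kb of the canonical transcript, over all 8 libraries. GNPNAT1, which acetylates the amino sugar, was the highest at 59.8 CPM per kb, followed by OGT at 20.7, OGA at 18.1, GFPT1 at 11.1, UAP1 at 6.67, PGM3 at 5.72 and GFPT2 at 0.372. The order of OGT and OGA depended on the length used, since per kb of all annotated exons OGT lay at 11.5 and OGA at 12.9, and PGM3 lay at 1.58, since its 50 annotated transcripts cover 22007 exon bases against 6079 in the canonical one. Between the isoenzymes of the entry step, which GFPT1 and GFPT2 encode, GFPT1 exceeded GFPT2 by 22.6 to 257 times per kb of all annotated exons in the 8 libraries. Ranked by CPM, GNPNAT1 stood at percentile 95.9, GFPT1 at percentile 87 and GFPT2 at percentile 22.3 of the genes tested.

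**Figure D1:**
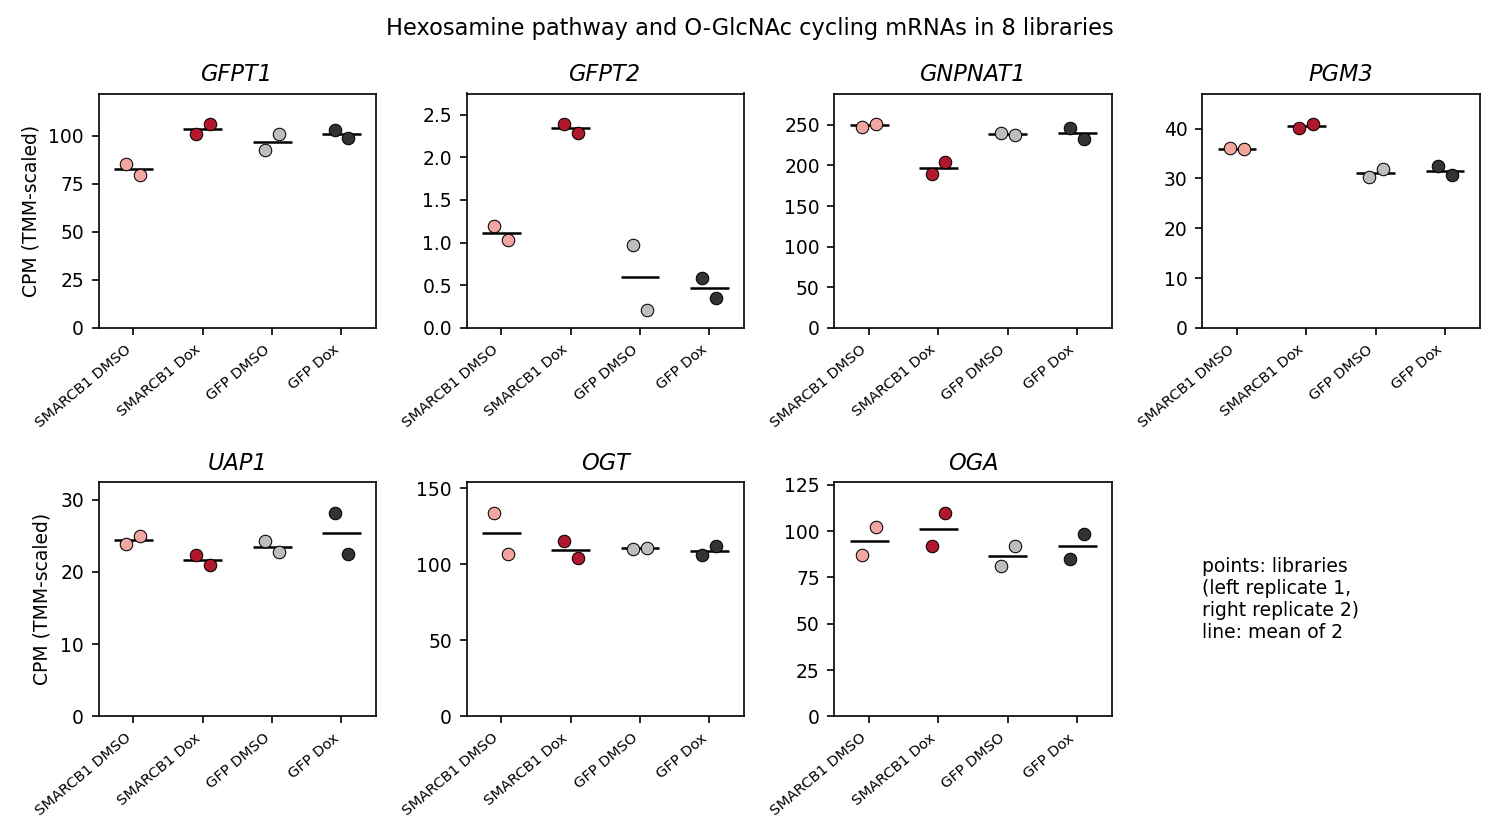
TMM-scaled CPM of the 7 members on linear axes that start at 0, with a point for each library (replicate 1 left, replicate 2 right) and a line at the mean of the 2 libraries of a group. GFPT1 lay at 101 and 106 CPM in SMARCB1 Dox above 85.4 and 79.7 in SMARCB1 DMSO, and GNPNAT1 at 190 and 204 below 248 and 251.

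Whether SMARCB1 re-expression altered these mRNAs was asked by comparing the Dox and DMSO groups of the SMARCB1 line. GFPT1 rose by 25.4%, GNPNAT1 fell by 21.1%, and the other 5 members were not called. The 2 called members are 28.6% of the 7, where 14.0% of all genes tested were called in either direction, 8.33% higher and 5.69% lower. Of these calls 59.4% were higher, and 80% with library totals in place of TMM. The median log2 fold change of the 7 members was 0.09, and that of all genes was -0.004. The groups did not overlap for 5 members, GFPT1, GFPT2, GNPNAT1, PGM3 and UAP1, but with 2 libraries a group this was so for 51.2% of all genes tested. In bulk RNA, a changed share of expressing cells and a changed level per cell cannot be told apart.

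GFPT1, encoding the enzyme that commits sugar to the pathway, is on the minus strand of chromosome 2 (69319780 to 69387250). It had 85.4 and 79.7 CPM in SMARCB1 DMSO and 101 and 106 CPM in SMARCB1 Dox. Both Dox libraries were above both DMSO libraries. The means of 82.6 ± 4.02 and 104 ± 3.28 CPM (SD, n = 2) differed by a log2 fold change of 0.33 (SE 0.0807, 95% interval 0.16 to 0.49), or 25.4%, at an adjusted p of 0.00817 (edgeR, Benjamini-Hochberg). The call was lost when SMARCB1 DMSO replicate 2 was left out (0.28, adjusted p 0.066) or SMARCB1 Dox replicate 2 (0.29, adjusted p 0.055), and kept without either replicate 1.

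GFPT2, the isoenzyme of the same step, is on chromosome 5 (180300698 to 180353336) and had few reads. SMARCB1 DMSO gave 35 and 34 counts, SMARCB1 Dox 85 and 80, GFP DMSO 33 and 8, and GFP Dox 18 and 13. SMARCB1 Dox was the highest group, and the GFP DMSO libraries had counting intervals that do not overlap (95% exact Poisson 22.7 to 46.3 and 3.45 to 15.8 counts). The fitted log2 fold change in the SMARCB1 line was 1.07 (SE 0.394, 95% interval 0.25 to 1.89) and was not called at an adjusted p of 0.0777 (edgeR, Benjamini-Hochberg). It was called with library totals, without an expression filter and with only these groups in the fit, at log2 fold changes of 1.16, 1.07 and 1.07.

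GNPNAT1, on chromosome 14 (52775193 to 52791668, minus strand), had 248 and 251 CPM in SMARCB1 DMSO and 190 and 204 CPM in SMARCB1 Dox. Both Dox libraries were below both DMSO libraries, and also below the 4 GFP libraries, which had 233 to 246 CPM. From 249 ± 2.78 to 197 ± 9.95 CPM (SD, n = 2), GNPNAT1 changed by -0.34 on the log2 scale (SE 0.0782, 95% interval -0.51 to -0.18), or -21.1%, at an adjusted p of 0.00447 (edgeR, Benjamini-Hochberg). It was not called without SMARCB1 Dox replicate 1 (-0.29, adjusted p 0.0599) or with library totals in place of TMM (-0.25, adjusted p 0.0591). The antisense RNA ENSG00000259049, which shares 1426 exon bases (35.6%) with GNPNAT1, had 3 to 14 counts per library.

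The remaining enzymes of the pathway are PGM3, which moves the phosphate on N-acetylglucosamine, and UAP1, which couples the sugar phosphate to uridine triphosphate. PGM3 (chromosome 6, 83147324 to 83193936) had 36.1 and 35.8 CPM in SMARCB1 DMSO and 40.2 and 40.9 CPM in SMARCB1 Dox, with a log2 fold change of 0.17 (SE 0.0872) and an adjusted p of 0.215 (edgeR). It was called after the GC trend of each library was removed (0.26, adjusted p 0.0399). Its SMARCB1 Dox libraries were the highest of all 8. DOP1A, which overlaps 1546 PGM3 exon bases on the opposite strand, had 593 and 651 unscaled counts in them. It had 338 and 468 in SMARCB1 DMSO and 439 to 574 in the GFP libraries. The part of this overlap in the PGM3 counts was not tested. UAP1 (chromosome 1, 162561722 to 162601240) had 23.8 and 25 CPM in SMARCB1 DMSO and 22.4 and 21 CPM in SMARCB1 Dox, with a log2 fold change of -0.17 (SE 0.111) and an adjusted p of 0.37 (edgeR). Its values did not overlap between these groups, though the 4 GFP libraries spanned 22.5 to 28.2 CPM.

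OGT, on chromosome X (71533087 to 71575892), had 134 and 107 CPM in SMARCB1 DMSO and 115 and 104 CPM in SMARCB1 Dox. SMARCB1 DMSO replicate 1 was the highest of the 8 libraries, and the groups overlapped. The log2 fold change of -0.14 (SE 0.0935, adjusted p 0.396, edgeR) was 0.03 without that library and -0.29 without SMARCB1 DMSO replicate 2, where it was called (adjusted p 0.0488). OGA, on chromosome 10 (101784443 to 101818465), had 87.1 and 102 CPM in SMARCB1 DMSO and 92.2 and 110 CPM in SMARCB1 Dox, which overlapped (log2 fold change 0.09, SE 0.102, adjusted p 0.627, edgeR). The direction of OGA turned without SMARCB1 DMSO replicate 1 (-0.02) and without SMARCB1 Dox replicate 2 (-0.04). The ratio of OGT to OGA per kb of annotated exons lay between 0.7 and 1.14 in the 8 libraries, at both its lowest and its highest in the SMARCB1 line.

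**Figure D2:**
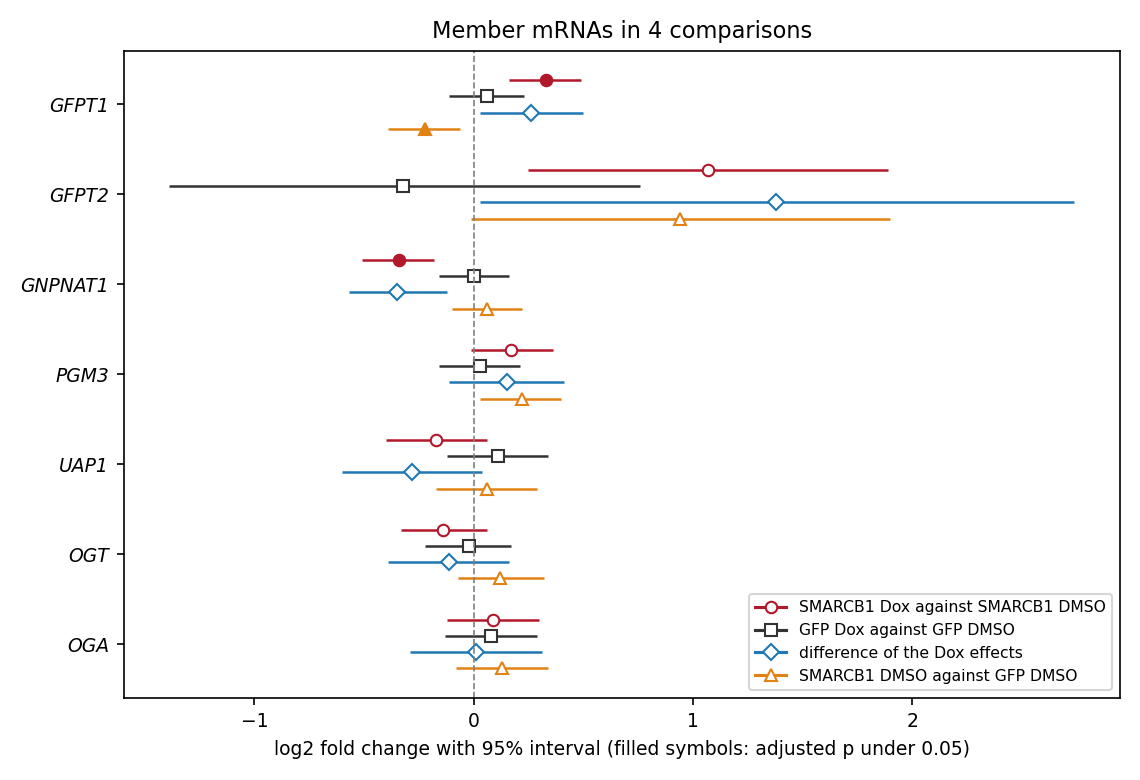
Log2 fold changes of the 7 members in 4 comparisons on a linear axis, with 95% intervals from the edgeR fit; filled symbols are called at an adjusted p under 0.05. GFPT1 (0.33) and GNPNAT1 (-0.34) were called in SMARCB1 Dox against SMARCB1 DMSO and GFPT1 (-0.22) in SMARCB1 DMSO against GFP DMSO, while the intervals of GFPT2 were the widest.

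The GFP line showed what Dox and a foreign protein did without SMARCB1. In GFP Dox against GFP DMSO, 0 of the 7 members were called, and 0 (0%) of all genes tested were called by edgeR, with 0 members at an unadjusted p under 0.05 and 0 called genes by DESeq2. GFPT1 had 92.3 and 101 CPM in GFP DMSO and 103 and 98.7 CPM in GFP Dox, and GNPNAT1 had 240 and 237 CPM and 246 and 233 CPM. Both pairs of groups overlapped, as they did for all 7 members. The 95% intervals of the log2 fold changes were -0.11 to 0.23 for GFPT1, -0.16 to 0.16 for GNPNAT1, -0.16 to 0.21 for PGM3, -0.12 to 0.34 for UAP1, -0.22 to 0.17 for OGT and -0.13 to 0.29 for OGA. For GFPT2 the interval ran from -1.39 to 0.76, and its value of -0.32 was 1.14 without GFP DMSO replicate 1 and 0.02 without GFP Dox replicate 2.

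The difference between the Dox effects of the lines was tested directly, and 0 of the 7 members passed, where 4.71% of all genes tested did (edgeR interaction contrast, Benjamini-Hochberg). At an unadjusted p under 0.05 there were 3 members, GFPT1, GFPT2 and GNPNAT1. The difference was 0.26 for GFPT1 (SE 0.114, 95% interval 0.03 to 0.50, adjusted p 0.24, edgeR) and -0.35 for GNPNAT1 (SE 0.11, 95% interval -0.57 to -0.12, adjusted p 0.0838, edgeR). The calls made within the SMARCB1 line were therefore not shown to differ from the GFP line at this threshold. DESeq2 called 1 member, GNPNAT1 (-0.34, adjusted p 0.0332). For OGT and OGA the differences turned in sign without SMARCB1 DMSO replicate 1, to 0.05 and -0.10. For GFPT2 the difference of 1.38 (SE 0.652, adjusted p 0.295, edgeR) was -0.07 without GFP DMSO replicate 1 and 2.15, then called, without GFP DMSO replicate 2 (adjusted p 0.0369).

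The untreated state of the lines was compared as SMARCB1 DMSO against GFP DMSO. GFPT1 was lower in SMARCB1 DMSO, by -0.22 (SE 0.0808, adjusted p 0.0378, edgeR), and was the 1 member of 7 called, where 32.0% of all genes tested were called, 16.3% higher and 15.7% lower. Of the calls over all genes 50.9% were higher, and 32.1% with library totals. Its 85.4 and 79.7 CPM in SMARCB1 DMSO were below 92.3 and 101 CPM in GFP DMSO, and the SMARCB1 Dox values of 101 and 106 CPM overlapped those of GFP Dox, 103 and 98.7 CPM. This comparison and the Dox effect in the SMARCB1 line share the SMARCB1 DMSO libraries, so their GFPT1 values are not independent. The call between the lines was lost without SMARCB1 DMSO replicate 2 (-0.18), GFP DMSO replicate 1 (-0.29) or GFP DMSO replicate 2 (-0.17), and without an expression filter (-0.23). PGM3 was at 36.1 and 35.8 CPM against 30.2 and 31.8 CPM, which did not overlap (log2 fold change 0.22, adjusted p 0.0674, edgeR, and 0.0472 with the GC trend removed), as was so for 64.7% of all genes tested. GFPT2 was at 0.94 (adjusted p 0.128, edgeR) and at 2.40, then called, without GFP DMSO replicate 1, and OGT at 0.12, at 0.27, then called, without SMARCB1 DMSO replicate 2 and at -0.04 without SMARCB1 DMSO replicate 1. Median log2 fold changes were 0.12 for the members and 0.015 for all genes, and scaling to library totals moved the latter to -0.101 and turned the signs of GNPNAT1 (-0.05) and UAP1 (-0.06).

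**Figure D3:**
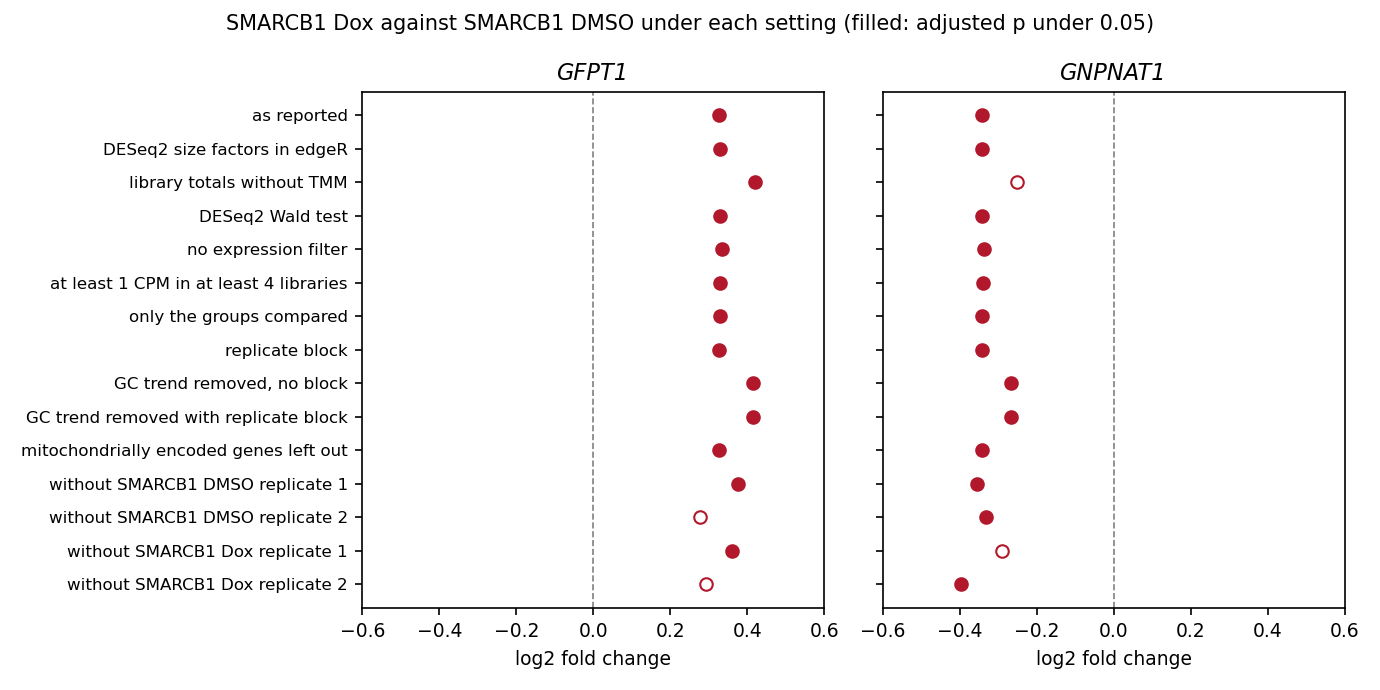
Log2 fold change of GFPT1 (left) and GNPNAT1 (right) in SMARCB1 Dox against SMARCB1 DMSO under each way of processing, with filled points called at an adjusted p under 0.05. All GFPT1 points lie between 0.28 and 0.42 and all GNPNAT1 points between -0.40 and -0.25.

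Genes that feed the pathway were examined next, in a list of 6 genes of substrate supply. After SMARCB1 re-expression 3 of the 6 were called, all higher, where 14.0% of all genes tested were called and 8.33% were higher. The median log2 fold change was 0.39 beside -0.004 for all genes, and 1 of the 3 calls, GLUL, rests on 1 count in SMARCB1 DMSO. The hexokinases HK1 and HK2, which trap glucose in the cell, rose by 0.70 (SE 0.103, adjusted p 6.18e-05) and 0.64 (SE 0.0897, adjusted p 3.34e-05, edgeR for both). HK2 had 34 and 34.1 CPM in SMARCB1 DMSO, 51.8 and 54.5 CPM in SMARCB1 Dox and 24.6 to 27.8 CPM in the GFP libraries, so that the SMARCB1 Dox libraries stood above all others. The other call was GLUL, glutamine synthetase, which makes the amino group donor of GFPT1. It had 0 and 1 counts in SMARCB1 DMSO and 8 and 14 in SMARCB1 Dox, against 309 to 388 in the 4 GFP libraries. Few GLUL reads were thus seen in all 4 libraries of the SMARCB1 line. With 1 count in SMARCB1 DMSO together, the ratio of SMARCB1 Dox to SMARCB1 DMSO was 19.4 with a 95% exact counting interval of 3.13 to 800, and that of GFP DMSO to SMARCB1 DMSO was 618 with an interval from 111. The glucose transporter SLC2A1 had 180 and 136 CPM in SMARCB1 DMSO and 147 and 125 CPM in SMARCB1 Dox, against 588 to 654 CPM in the GFP libraries (SMARCB1 DMSO against GFP DMSO, log2 fold change -1.97, SE 0.111, adjusted p 2.84e-12, edgeR). In that comparison 4 of the 6 supply genes were called, 2 higher and 2 lower, where 32.0% of all genes tested were called. Without GFP DMSO replicate 1 the calls were 2, both lower. GPI and SLC1A5 were at 0.14 and 0.13 after SMARCB1 re-expression, neither of them called.

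**Figure D4:**
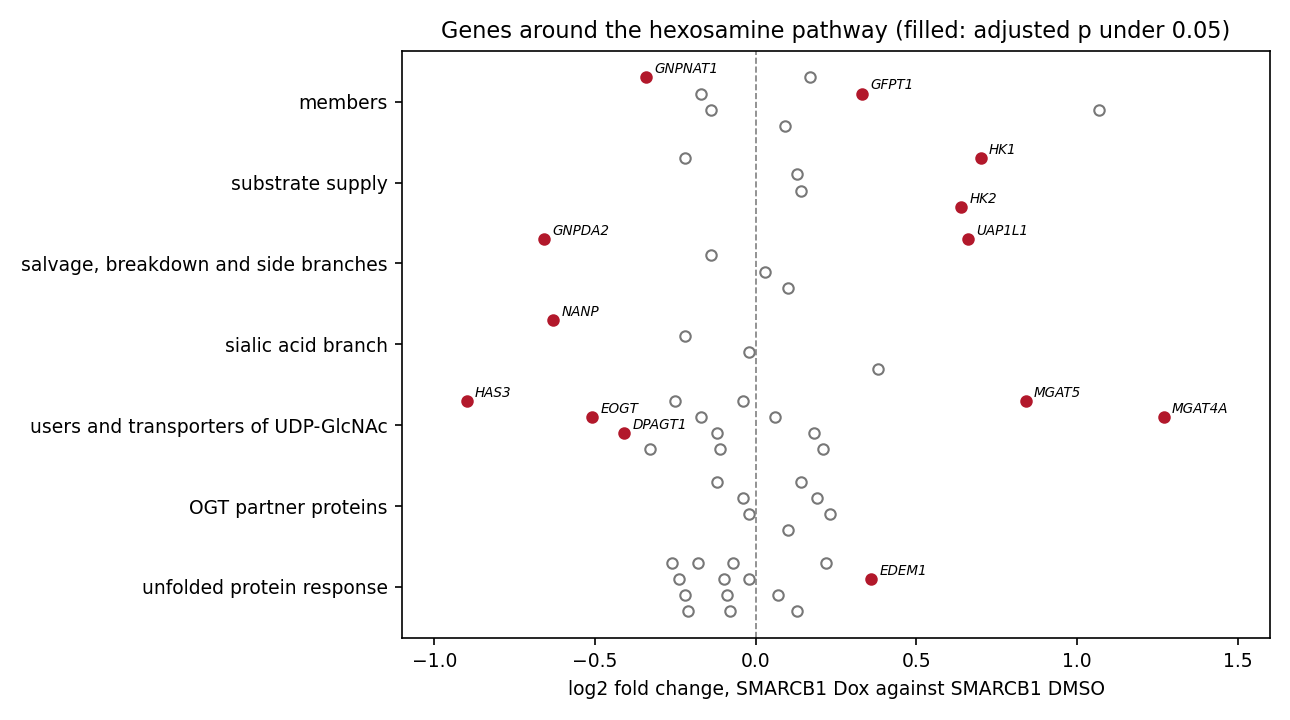
Log2 fold change in SMARCB1 Dox against SMARCB1 DMSO for each tested gene of 7 lists, with filled, named points called at an adjusted p under 0.05; vertical offsets within a list only separate points. GLUL and RENBP are left out because of few counts. Calls lie on both sides of 0 among the members, the genes of salvage, breakdown and side branches, and the users of UDP-GlcNAc. MGAT4A at 1.27 is the rightmost.

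Of 6 genes of salvage, breakdown and side branches, 2 were called higher and 1 lower in SMARCB1 Dox than in SMARCB1 DMSO, where 14.0% of all genes tested were called. The median of 0.07 was -0.01 without SMARCB1 DMSO replicate 1 and -0.02 without SMARCB1 Dox replicate 2. UAP1L1, a homolog of UAP1, had 9.29 and 9.46 CPM in SMARCB1 DMSO, 14 and 15.7 CPM in SMARCB1 Dox and 18.3 to 19.4 CPM in the GFP libraries (log2 fold change 0.66, SE 0.117, adjusted p 0.000425, edgeR). GNPDA2, a deaminase that runs against the entry step, fell by 0.66 on the log2 scale, from 33.4 and 34.3 to 20.5 and 22.4 CPM (adjusted p 0.000183, edgeR), while its paralog GNPDA1 was at 0.03 (adjusted p 0.867). RENBP, called higher as well, rested on 1 and 2 against 11 and 9 counts, a ratio of 5.87 (95% exact counting interval 1.74 to 30.9). It was not called when any 1 of these 4 libraries was left out. Between the DMSO groups, 3 of the 6 were called, all lower in the SMARCB1 line, with a median of -0.35, where 32.0% of all genes tested were called and 15.7% were lower. With library totals all 6 were called, at a median of -0.46 beside -0.101 for all genes. The 3 called in the main fit were UAP1L1 (-1.05), GNPDA1 (-0.39) and RENBP (-2.81). The RENBP call rests on 1 and 2 counts in SMARCB1 DMSO against 12 and 14 in GFP DMSO.

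In the sialic acid branch, 1 of 4 genes was called, and lower, where 14.0% of all genes tested were called. NANP, the phosphatase of this branch, had 21.3 and 23.3 CPM in SMARCB1 DMSO and 14.3 and 14.6 CPM in SMARCB1 Dox, below the 20 to 23.3 CPM of the GFP libraries (log2 fold change -0.63, SE 0.11, adjusted p 0.000406, edgeR). GNE, NANS and CMAS were at -0.22, 0.38 and -0.02 and were not called, though NANS was with library totals (0.47) or without SMARCB1 Dox replicate 2 (0.55). The median of the branch was -0.12. Between the DMSO groups 0 of its 4 genes were called, with 1 at an unadjusted p under 0.05, where 32.0% of all genes tested were called. There DESeq2 called 0 of them and edgeR with library totals 1.

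Of 16 users and transporters of UDP-GlcNAc, 14 were tested, and 2 were called higher and 3 lower in SMARCB1 Dox, where 14.0% of all genes tested were called. The median of -0.12 was 0.00 without SMARCB1 DMSO replicate 1, where 3 of the 14 were called. Both that rose, MGAT4A and MGAT5, encode enzymes that add branches to N-glycans. The other MGAT enzymes listed, MGAT1, MGAT2, MGAT3 and MGAT4B, were at -0.17, -0.04, 0.21 and 0.06 and were not called, though MGAT3 was with library totals (0.30). MGAT4A had 1.23 and 1.61 CPM in SMARCB1 DMSO and 4.07 and 2.83 CPM in SMARCB1 Dox (log2 fold change 1.27, SE 0.227, adjusted p 0.000497, edgeR), below the 6.06 to 6.39 CPM of the GFP libraries. MGAT5 had 12.6 and 10.4 CPM in SMARCB1 DMSO, 21.4 and 19.6 CPM in SMARCB1 Dox and 1.01 to 1.49 CPM in the GFP libraries (0.84, SE 0.142, adjusted p 0.000304, edgeR). In SMARCB1 DMSO against GFP DMSO, MGAT4A was at -2.15 and MGAT5 at 3.28, both called. The Dox effect of MGAT5 was not shown to differ between the lines (0.77, adjusted p 0.16, edgeR), while that of MGAT4A passed this test (1.32, adjusted p 0.00851, edgeR). HAS3, a hyaluronan synthase, had 3.77 and 3.09 CPM in SMARCB1 DMSO and 2.11 and 1.54 CPM in SMARCB1 Dox (-0.90, SE 0.238, adjusted p 0.0127, edgeR), a call lost without SMARCB1 DMSO replicate 1 (-0.76) or SMARCB1 Dox replicate 2 (-0.70). The other hyaluronan synthases were not tested, since HAS2 had 0 counts in all 8 libraries, which allows up to 0.0798 to 0.101 CPM in a library (3 counts, library totals, counting error only), and HAS1 had 2 counts in 1 library. EOGT, which puts GlcNAc on secreted proteins, was at -0.51 and DPAGT1, which starts N-glycan precursors, at -0.41, both called and both named after their values were seen. The DPAGT1 call was lost without SMARCB1 DMSO replicate 1 (-0.30). Between the DMSO groups 8 of the 14 were called, 7 higher in the SMARCB1 line and 1 lower, with a median of 0.25, where 32.0% of all genes tested were called, 16.3% higher and 15.7% lower. With library totals 5 were called, 4 of them higher, at a median of 0.13, and without GFP DMSO replicate 2 also 5, 4 of them higher.

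The mRNAs of proteins that work with OGT gave no call after SMARCB1 re-expression. The list held HCFC1, which OGT cleaves, the DNA demethylases TET1, TET2 and TET3, and BAP1, ASXL1 and SIN3A. In SMARCB1 Dox against SMARCB1 DMSO, edgeR called 0 of these 7, where 14.0% of all genes tested were called. DESeq2 also called 0, 2 had an unadjusted p under 0.05 by edgeR, and the median was 0.10. With library totals 1 was called, TET3 (0.32). In SMARCB1 DMSO against GFP DMSO 3 of the 7 were called, ASXL1 (0.48) and BAP1 (0.24, named after its value was seen) higher and TET1 (-0.44) lower, where 32.0% of all genes tested were called. BAP1 was not called with library totals (0.12) or when any 1 of these 4 libraries was left out. TET1 had 67.2 and 68.8 CPM in SMARCB1 DMSO and 90.5 and 93.8 CPM in GFP DMSO, which did not overlap.

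Genes of the unfolded protein response were listed because XBP1 is known to drive hexosamine pathway genes. After SMARCB1 re-expression 1 of 14 was called, where 14.0% of all genes tested were, and the median was -0.08. Without SMARCB1 DMSO replicate 2 there were 5 calls, 4 of them lower. EDEM1, which targets misfolded glycoproteins for degradation, rose from 95.5 and 87 to 119 and 115 CPM (log2 fold change 0.36, SE 0.0796, adjusted p 0.00355, edgeR). XBP1 was at 0.13 and the chaperone HSPA5 at -0.22 (adjusted p 0.299 and 0.211, edgeR). Between the DMSO groups 8 of the 14 were called, 7 higher in the SMARCB1 line and 1 lower, with a median of 0.31, where 32.0% of all genes tested were called. This count rests on SMARCB1 DMSO replicate 1, the library with the highest mitochondrial share. Without it 3 of the 14 were called, 2 higher and 1 lower, at a median of 0.15. HSPA5 had 452 and 335 CPM in SMARCB1 DMSO, and its difference of 0.39 was 0.15 and not called without that library, as was so for the chaperone HSP90B1 (0.37 and 0.20) and for SEL1L (0.40 and 0.20), which serves the degradation of misfolded proteins. With library totals 6 of the 14 were called, 5 of them higher. PDIA4, a disulfide isomerase, had 348 and 288 CPM in SMARCB1 DMSO and 227 and 215 CPM in GFP DMSO (0.52, SE 0.0873, adjusted p 6.29e-05, edgeR, and 0.38, still called, without SMARCB1 DMSO replicate 1), and DNAJB9, a co-chaperone, was at -0.46, not called without SMARCB1 DMSO replicate 2 (-0.26) or GFP DMSO replicate 1 (-0.36). In GFP Dox against GFP DMSO, 0 genes of any of these 6 lists were called by edgeR or DESeq2, and 0 had an unadjusted p under 0.05.

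The genes whose log2 CPM followed a member most closely over the 8 libraries were found by Pearson's r among genes of at least 5 CPM on average, as a description, since libraries of a group and line are not independent. For GFPT1 these were HDX (0.979), MAP2K1 (0.962), DIP2C (0.956), CAST (0.954) and RNF19A (0.953). The number of genes with r above 0.9 was 710 (7.14% of 9946) for PGM3, 174 for GNPNAT1, 122 for GFPT2, 48 for GFPT1, 33 for OGA, 10 for OGT and 3 for UAP1, so that a high r is least particular for PGM3. GNPNAT1 was followed by COX20 (0.987) and GCFC2 (0.986), PGM3 by SAP30 and GADD45A (0.991 for both), GFPT2 by FHL3 (0.979) and NUTF2 (0.966), UAP1 by PDRG1 (0.933) and PRELID3B (0.914), OGT by RSRP1 (0.971) and CLCN2 (0.966), and OGA by NCAPD2 (0.982) and CTNNA1 (0.966). No member was among these. Among the members, r ran from -0.68 between GNPNAT1 and PGM3 to 0.82 between GFPT2 and PGM3, and was -0.60 between GFPT1 and GNPNAT1.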

How the data were processed

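Total RNA of 8 G401 libraries was sequenced. The authors deposited raw read counts per gene, made with STAR and HTSeq over exons in intersection-strict mode with GENCODE v42 (hg38 per the labels' processing notes). Tool versions and the strand option were not given in the sources used here, and the labels name a ribosome profiling kit where the study's methods name a stranded RNA kit, so reads of overlapping antisense genes may not be separated. The 5 entries that name no gene held 27% to 29.3% of reads and were left out.

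Symbols, exons and lengths were taken from GENCODE v44, which matched 62625 of 69215 genes. Counts were tested with edgeR (4.0.16, R 4.3.3), its default expression filter, TMM and the quasi-likelihood test, with 1 mean for each group and all 8 libraries in the fit, over 15931 genes in 4 comparisons, with a Benjamini-Hochberg threshold of 0.05. DESeq2 (1.42.0), which the study's methods name, other scalings and filters, a GC correction, the replicate number as a block, and each library left out were alternatives. The steps were tested on simulated data. A floor of 3 counts limited unread genes, and intervals cover counting error only, since PCR copies are not independent. Replicates of every group differed by more than sampling noise.

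The members, the 6 gene lists and the tests were chosen with earlier results of these data known. From each list, up to 3 called genes of largest absolute log2 fold change were named for SMARCB1 Dox against SMARCB1 DMSO and up to 2 for the comparison of the DMSO groups, at a mean of at least 1 CPM. GPI, SLC1A5, GNE, NANS, CMAS, RENBP, HAS1, HAS2, EOGT, DPAGT1, MGAT1, MGAT2, MGAT3, MGAT4B, BAP1, HCFC1, SIN3A, TET2, TET3, XBP1, HSPA5, HSP90B1 and SEL1L were named beyond this rule after their values were seen. Promoter sequences were read from RefSeq and primers from the study's supplement. Protein sequences were not used here. Some genes around the pathway are not reported here and were left out of the lists, though all genes stayed in the tests.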

Additional observations from a re-analysis of the deposited data

Results flagged for a closer look

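No member gene had a Dox effect that differed between the lines at the threshold, where 4.71% of all genes tested did. Of the listed genes around the pathway, 9 did (edgeR interaction contrast, Benjamini-Hochberg over all genes tested). They were 3 of 6 genes of substrate supply, 2 of 6 of salvage, breakdown and side branches, 1 of 4 of the sialic acid branch and 3 of 14 users and transporters. Of the 7 OGT partners and the 14 unfolded protein response genes, 0 did by edgeR, while DESeq2 called 1 of the unfolded protein response genes. Each difference is the log2 fold change of Dox against DMSO in the SMARCB1 line minus that in the GFP line. More positive with SMARCB1 were HK1 (0.53, adjusted p 0.0404), HK2 (0.63, adjusted p 0.00479), UAP1L1 (0.73, adjusted p 0.00831) and MGAT4A (1.32, adjusted p 0.00851). More negative were GNPDA2 (-0.69, adjusted p 0.00705), NANP (-0.55, adjusted p 0.0401), DPAGT1 (-0.52, adjusted p 0.015) and EOGT (-0.45, adjusted p 0.0493). GLUL had a fitted difference of 3.94, which rests on 0 and 1 counts in SMARCB1 DMSO and is no bound on the change.

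With each of the 8 libraries left out in turn, the difference of UAP1L1 was called every time (0.65 to 0.81). That of HK2 (0.55 to 0.72) was lost only without GFP DMSO replicate 2, that of MGAT4A (1.04 to 1.56) only without SMARCB1 Dox replicate 1, and that of GNPDA2 (-0.83 to -0.54) without GFP DMSO replicate 2 or GFP Dox replicate 1. The difference of GLUL (3.16 to 6.38) was lost without SMARCB1 DMSO replicate 1 or SMARCB1 Dox replicate 2. HK1 kept its call in 2 of the 8 fits (0.43 to 0.64), without SMARCB1 DMSO replicate 2 or GFP DMSO replicate 1. NANP kept it in 2 (-0.66 to -0.43), without SMARCB1 DMSO replicate 1 or GFP Dox replicate 2. DPAGT1 kept it in 3 (-0.63 to -0.41), without SMARCB1 DMSO replicate 2, SMARCB1 Dox replicate 2 or GFP DMSO replicate 1, and EOGT in 1 (-0.59 to -0.30), without SMARCB1 DMSO replicate 2.

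Under the 9 other ways of processing, HK2, UAP1L1, GNPDA2, MGAT4A and DPAGT1 were called every time. HK1 and GLUL were not called with DESeq2, which left 1 of the 6 supply genes called, HK2. NANP was not called with library totals, DESeq2 or the GC trend removed. EOGT was called in 3 of the 9, and not with DESeq2 size factors, library totals, DESeq2, the stricter expression filter, the GC trend removed or mitochondrially encoded genes left out.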

How the results depend on the processing

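Of 413 values of the members under other settings, 361 kept their direction and their side of the threshold, 8 lost a call, 17 gained one and 27 turned in sign. For the listed genes, 484 values were compared, only for genes and comparisons called in the main fit, so that no call could be gained. Of these, 431 kept both and 53 lost a call. Listed genes that were not called in the main fit are not in this count. Of all genes tested, 2234 were called in the SMARCB1 line and 1284 or 1462 without SMARCB1 Dox replicate 1 or SMARCB1 DMSO replicate 1. For the difference between the Dox effects 750 were called, and 469, 497, 414, 390 and 427 without SMARCB1 Dox replicate 1, GFP DMSO replicate 1, GFP DMSO replicate 2, GFP Dox replicate 1 and GFP Dox replicate 2. In the GFP line 1 gene was called without an expression filter. Scaling to library totals raised the share of higher calls from 59.4% to 80% in the SMARCB1 line and from 65.2% to 80.8% for the difference, and lowered it from 50.9% to 32.1% between the DMSO groups. The cause was not tested.

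For SMARCB1 Dox against SMARCB1 DMSO, library totals gave 1.16 for GFPT2 (called) and -0.25 for GNPNAT1 (not called). GFPT2 was called without a filter (1.07) and with only these groups fitted (1.07), and PGM3 with the GC trend removed (0.26). For GFP Dox against GFP DMSO, GNPNAT1 was at 0.003, and at -0.001 with the stricter filter or without mitochondrially encoded genes, and -0.002 with only these groups or the GC trend removed. For the difference, DESeq2 called 1 member, GNPNAT1 (-0.34). Between the DMSO groups GFPT1 was not called without a filter (-0.23), where GFPT2 was (0.93), PGM3 was called with the GC trend removed (0.22), which gave 2 members called, and library totals gave -0.054 for GNPNAT1 and -0.057 for UAP1.

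The replicate numbers of the labels are not said to mark a shared culture or batch. Deviations of same-numbered libraries from their group means correlated at 0.03 to 0.15. These values do not settle whether the numbers pair the samples, and the main fit did not pair them. With the replicate number as a block, all genes called were 3149 in the SMARCB1 line, against 2234 without it. For the difference they were 1282 against 750 (1216 with the GC trend removed as well), and between the DMSO groups 5977 against 5105. In the SMARCB1 line the block called GFPT2 (1.08), and with the GC trend PGM3 (0.26). For the difference it called 1 member, GNPNAT1 (-0.35), and with the GC trend 1, GFPT1 (0.35). With block and GC trend GNPNAT1 was at -0.002 in the GFP line. Between the DMSO groups it called 2 members, PGM3 at 0.22 with and without the GC trend besides GFPT1.

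With each library left out in turn, 1 to 2 members were called in the SMARCB1 line, 0 in the GFP line, 0 to 1 for the difference and 0 to 1 between the DMSO groups. In the SMARCB1 line the ranges were 0.28 to 0.38 for GFPT1, -0.40 to -0.29 for GNPNAT1, -0.287 to 0.029 for OGT and -0.041 to 0.216 for OGA. In the GFP line they were -1.08 to 1.14 for GFPT2, -0.041 to 0.039 for GNPNAT1, -0.021 to 0.067 for PGM3, -0.063 to 0.267 for UAP1, -0.070 to 0.019 for OGT and -0.030 to 0.176 for OGA. For the difference they were -0.069 to 2.15 for GFPT2, -0.27 to 0.050 for OGT and -0.12 to 0.14 for OGA, and between the DMSO groups -0.29 to -0.17 for GFPT1, 0.18 to 2.40 for GFPT2 and -0.044 to 0.272 for OGT. With 2 libraries a group, a lone library left in a group was assumed to vary like the other groups. GFPT2 had 8 to 85 counts, the fewest of the members and so the largest relative counting error, and its GFP DMSO libraries differed beyond their counting intervals.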

Other observations

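OGA was higher in replicate 2 than in replicate 1 in 4 of the 4 groups (87.1 and 102, 92.2 and 110, 81.4 and 92, and 85.1 and 98.3 CPM in SMARCB1 DMSO, SMARCB1 Dox, GFP DMSO and GFP Dox), and GFPT2 was higher in replicate 2 in 0 of the 4. The numbers are those of the sample titles, which do not say what they mark.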
